A study of Trachemys scripta with 4 samples.

Results

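The genes described here encode the respiratory chain and ATP synthase of the turtle *Trachemys scripta*, measured by RNA-seq in embryonic peripheral nerves. They were chosen by gene symbol, as the rows of the deposited expression table whose names mark subunits or dedicated assembly factors of complexes I to V. The rule found 78 genes among 15289 rows, and all 78 were among the 15100 genes analysed, those with at least 1 TPM (reads per gene length, scaled to a sum of 1000000 per column) in 2 or more columns. Of these, 65 are nuclear encoded and 13 mitochondrially encoded. They comprise 35 nuclear and 7 mitochondrially encoded subunits of complex I with 7 assembly factors, 3 subunits and 4 assembly factors of complex II, *CYTB* of complex III, *COX1*, *COX2*, *COX3* and *NDUFA4* of complex IV, and 14 nuclear and 2 mitochondrially encoded subunits of complex V with its inhibitor *ATP5IF1*. Nuclear encoded subunits of complex III, cytochrome c, the nuclear COX genes, SDHD and ATP5F1B were not analysed here.

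The comparison set nerves of stage 21 (st.21) embryos against nerves of stage 19 (st.19) embryos, stages picked by external morphology to span the approach to myelination. The embryos came from eggs of wild-caught females given oxytocin to lay, with no other treatment or genetic change named, and both groups consist of pieces of the brachial and sacral plexus, tissue that can carry cells from around the nerve. The study's methods name a poly(A)-selecting library kit for a batch of nerve tissue. Each stage is present as 2 columns, called replicate 1 and replicate 2 in the labels. The Schwann cell markers *SOX10* and *ERBB3* had from 132 to 333 TPM in the 4 columns, and none of the 9 Schwann cell markers was at 0.

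The respiratory chain passes electrons from NADH and succinate through complexes I and II to ubiquinone, then through complex III, cytochrome c and complex IV to oxygen. The proton gradient built by complexes I, III and IV drives complex V, the ATP synthase. The core of complexes I, III, IV and V is encoded partly by mitochondrial DNA and partly by nuclear genes, while complex II is wholly nuclear encoded. In vertebrates all mitochondrial messages of these complexes are read from the same strand except *ND6*, which lies on the other strand. Neurons and muscle fibres are both rich in mitochondria, and Schwann cells build their membrane lipids from precursors that mitochondria export.

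Whole reads per gene were recovered from the deposited values. Depth was 2229177 and 2129599 reads on genes in the st.21 columns, against 4353821 and 4241655 in the st.19 columns. Within a stage, sampling noise exceeded the gap between columns for most genes, with a mean chi-square per gene of 0.323 within st.21 and 0.433 within st.19 over genes with 5 to 500 reads, where independent sampling gives 1. Genes above 500 reads averaged 1.72 at st.21 and 1.56 at st.19, and members above 500 reads averaged 3.12 at st.21 and 4.03 at st.19, so the best covered genes differed between columns by more than sampling noise. Over genes with 5 to 500 reads the columns of a stage thus lay closer together than independent samplings of reads would. The study states a single sample per stage, yet its heatmap description mentions biological replicates within a condition. Its methods also describe a test of differential expression between the stage groups. Its supplement lists the later stage more than once among the sequenced RNA samples. Whether the columns of a stage hold different libraries or reads of the same library is not given in the sources used here. The 2 columns were therefore counted as 1 sample per stage, and no p-value is given for any difference between the stages. Stages that do not overlap are so over columns, not over embryos. In log2 TPM minus the median gene of each column, the stages did not overlap for most of the 78 genes, with 59 higher and 15 lower at st.21. The same count was not made over all genes, so a lack of overlap has no background share. Differences are mean log2 TPM at st.21 minus mean log2 TPM at st.19. Intervals beside a difference (95%, exact binomial) come from the reads of the replicate 1 columns and are given relative to the median gene of those columns. They cover counting error only. They are not intervals of the difference printed beside them, which uses all columns on the deposited scale, and need not contain it. An rRNA gene made up 0.145% and 0.317% of all TPM at st.21, against 18.9% and 44.2% at st.19, and the level of that gene enters every other TPM of its column. The median gene had a difference of 0.06 on the deposited scale and of −0.46 when only protein-coding genes entered the TPM total, so a difference near 0 has no fixed sign.

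On the deposited scale the respiratory chain genes were on balance higher at st.21, the mitochondrially encoded ones by the larger median. The median difference over the 78 genes was 0.64, against 0.06 over all genes. On that scale 62 were higher and 16 lower (53.1% of all genes were higher). A log2 difference above 1 was found for 26 of the 78 (33.3%), where 17.3% of all genes analysed lay above 1. A log2 difference below −1 was found for 2 of the 78 (2.56%), where 9.68% of all genes lay below −1. Split by genome, 10 of the 13 mitochondrially encoded and 16 of the 65 nuclear encoded genes (24.6%) lay above 1, and short genes in general were higher at st.21, with a median of 0.80 for protein-coding genes under 600 nucleotides. In bulk tissue, more cells of a type and more RNA per cell cannot be told apart. Relative to the median gene, which leaves 7550 of 15100 genes higher, 60 were higher and 18 lower. The counting interval lay wholly above the median gene for 46, wholly below it for 7, and included it for 25. The same interval count was not made over all genes, so these numbers have no background share. With quantile normalization 8 of the 78 (10.3%) lay above 1, against 13.6% of all genes, so the members' share was then below that of all genes. With a TPM total over protein-coding genes alone 8 (10.3%) lay above 1, against 7.34% of all genes, and 6 (7.69%) below −1, against 24.6% of all genes. Without st.19 replicate 2 the number above 1 came to 13 (16.7%), against 11.5% of all genes. Measured against the median gene, it came to 24 (30.8%) without that column, against 16.2% of all genes. On the same measure it came to 27 (34.6%) without st.19 replicate 1, against 17.0% of all genes. The protein-coding total turned the sign of 19 genes and quantile normalization that of 15. None of the 28 genes past a difference of 1 in either direction was among them. For the protein-coding total this was fixed beforehand, since it moves every gene by the same amount, less than 1. Quantile normalization brought *COX1* to 0.00, *ND1* to 0.05 and *CYTB* to 0.07.

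**Figure D1:**
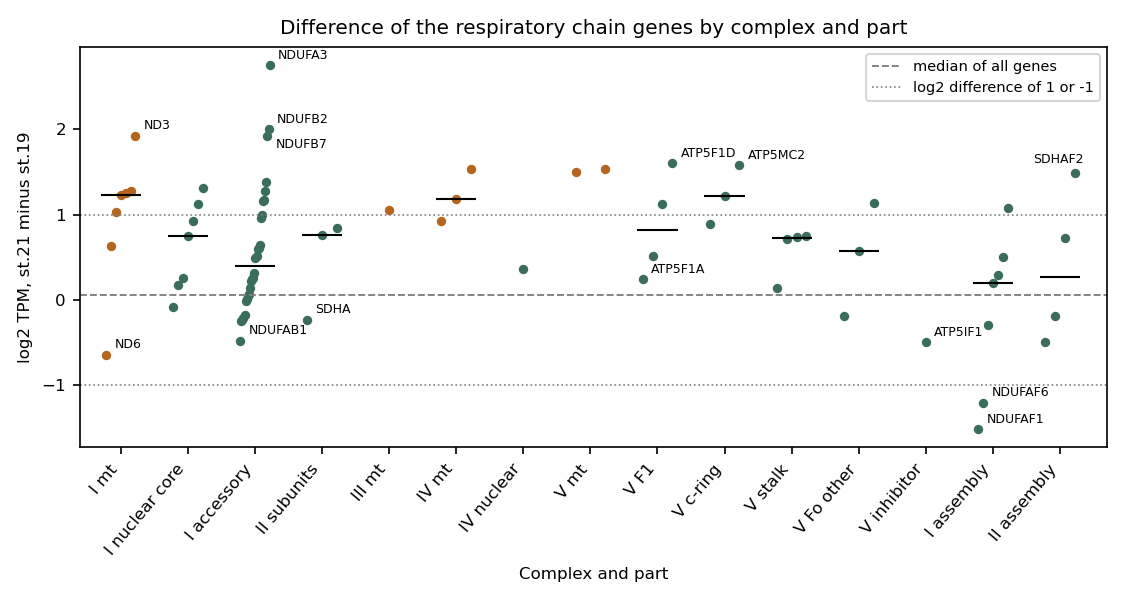
Difference in log2 TPM (st.21 minus st.19) of each of the 78 genes, by complex and part. Orange points are mitochondrially encoded and green points nuclear encoded genes, black bars mark the median of groups with more than 2 genes, the dashed line is the median of all genes at 0.06 and the dotted lines mark 1 and −1. All mitochondrially encoded genes except *ND6* lie above the dashed line, while complex I accessory subunits spread from −0.48 (*NDUFAB1*) to 2.75 (*NDUFA3*).

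The 13 mitochondrially encoded genes had a median difference of 1.23, a 2.34-fold higher level at st.21. Of these, 12 were higher and 1 lower (53.1% of all genes were higher), and 10 lay above 1 (76.9%, against 17.3% of all genes). Their median length was 784 nucleotides, and 35.0% of protein-coding genes of 600 to 1000 nucleotides lay above 1. Quantile normalization brought the median difference to 0.08 and turned *COX2* to −0.40 and *ND4* to −0.38. Every scaling by a single factor per column left 12 higher, its shift being less than the smallest positive difference, 0.64. Together they took 3.34% (95% exact interval 3.31 to 3.36) and 3.45% (3.42 to 3.47) of the reads on genes in the st.21 columns, against 1.997% (1.98 to 2.01) and 1.993% (1.98 to 2.01) in the st.19 columns. *COX1*, the catalytic subunit of complex IV that holds the oxygen-reducing site, had the highest level of the 13. It had 21421 and 22045 TPM at st.21, against 11395 and 8049 TPM at st.19, and ranked the 2nd of all genes in every column. The st.21 values lay above both st.19 values, and the difference was 1.18 on the log2 scale (interval 1.09 to 1.14 for replicate 1, relative to the median gene), while the columns within a stage differed by more than sampling noise (chi-square 20.4 at st.21, 12.0 at st.19). Since its rank did not move, quantile normalization set the difference of *COX1* to 0.00.

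*ND3*, a small core subunit of the membrane arm of complex I on the mitochondrial chromosome from 9546 to 9895 (RefSeq annotation of the assembly CAS_Tse_1.0), had the largest difference of the 13. It had 13151 and 13703 TPM at st.21, against 4179 and 2986 TPM at st.19, a difference of 1.93 (interval 1.79 to 1.93). *ATP6* and *ATP8*, which form part of the proton-conducting base of complex V, and *COX3* of complex IV lie next to each other and differed by similar amounts, 1.50, 1.54 and 1.54. *ATP6* had 6328 and 6427 TPM at st.21, against 2678 and 1886 TPM at st.19. *ATP8* overlaps *ATP6* by 31 bases and *ATP6* overlaps *COX3* by 1 base, and reads in an overlap could belong to either gene. The ratio of *ATP6* to *ATP8* was 4.53 and 4.38 in the st.21 columns, against 4.63 and 4.49 in the st.19 columns, so these neighbours kept nearly the same proportion.

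The remaining messages were spread over a range of differences. *ND1* and *ND2*, core membrane subunits of complex I, were higher by 1.23 and 1.26, and *ND4L* by 1.27. *CYTB*, the haem-bearing core of complex III, had 2850 and 2883 TPM at st.21, against 1654 and 1152 TPM at st.19, a difference of 1.05. *ND5* was higher by 1.03 and *COX2*, which takes electrons from cytochrome c, by 0.92. *ND4*, whose annotation overlaps that of *ND4L* by 7 bases, had the smallest positive difference, 0.64, with 2135 and 2167 TPM at st.21, against 1656 and 1157 TPM at st.19. The messages thus did not move as a block: *ND3* had 6.16 and 6.32 times the TPM of *ND4* in the st.21 columns, against 2.52 and 2.58 times in the st.19 columns. These ratios are taken within a column and do not depend on any single factor per column, though quantile normalization changes them.

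**Figure D2:**
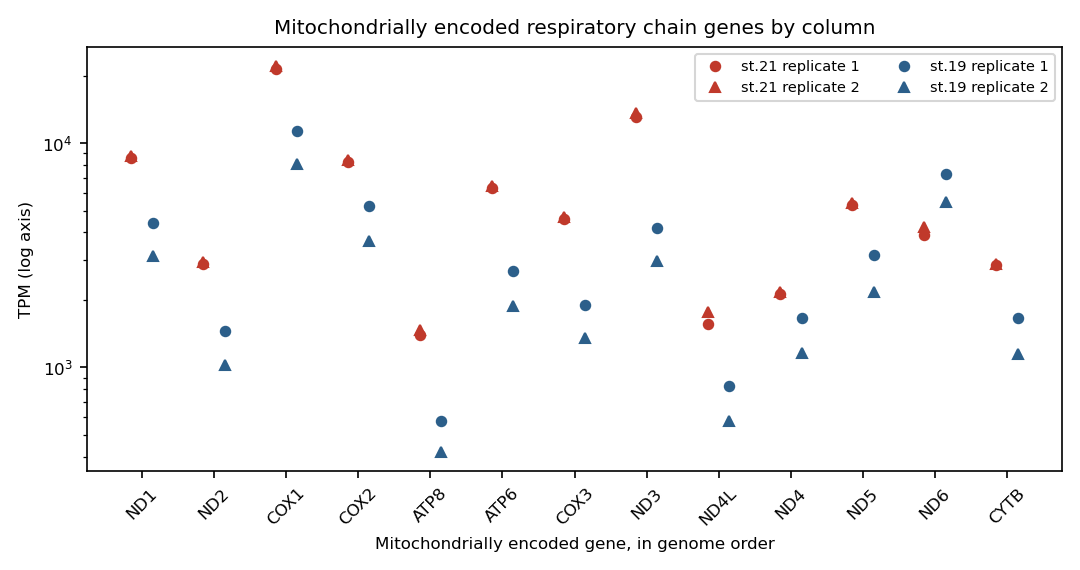
TPM (log axis) of the 13 mitochondrially encoded genes in genome order, in the 2 st.21 columns (red) and the 2 st.19 columns (blue). *COX1* is the highest in every column at 8049 to 22045 TPM, and *ND6* is the only gene whose st.21 points lie below its st.19 points.

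*ND6*, a core membrane subunit of complex I on the mitochondrial chromosome from 13801 to 14325, went the other way. It had 3914 and 4218 TPM at st.21, against 7297 and 5482 TPM at st.19. Both st.21 values lay below both st.19 values, and the difference was −0.64 (interval −0.77 to −0.62). Among all genes *ND6* ranked 18 and 17 by TPM in the st.21 columns, against 4 in both st.19 columns. Of the mitochondrially encoded reads it took 2.53% (2.41 to 2.64) and 2.65% (2.54 to 2.77) at st.21, against 8.35% (8.16 to 8.53) and 8.87% (8.68 to 9.06) at st.19. The ratio of *ND6* to its neighbour *ND5* was 0.738 and 0.783 in the st.21 columns, against 2.31 and 2.53 in the st.19 columns. Against its neighbour on the other side, *CYTB*, it was 1.37 and 1.46 at st.21, against 4.41 and 4.76 at st.19. The difference of *ND6* was negative under each of the 5 other scalings, from −0.57 without mitochondrially encoded genes in the total to −1.71 with quantile normalization. Apart from quantile normalization, these scalings move every gene by the same amount, too small to turn a difference of −0.64. Only quantile normalization could have changed its sign. The library kit named in the study's methods marks strand, but the strand setting of the counting is not given in the sources used here. Reads of *ND6* and reads from the opposite strand of its interval therefore cannot be told apart. Within a stage the 2 columns differed by more than sampling noise for *ND6*, with a chi-square of 6.58 at st.21 and 28.9 at st.19.

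Summed mitochondrially encoded messages were also higher relative to the summed nuclear encoded subunits analysed. In these sums *CYTB* has no nuclear partner, and *COX1*, *COX2* and *COX3* have only *NDUFA4*. The summed TPM of the 13 genes was 6.28 and 6.52 times that of the 50 nuclear subunits of complexes I, IV and V in the st.21 columns, against 4.90 and 5.11 times in the st.19 columns, a 1.28-fold higher ratio. Without *ND6* the ratio was 5.98 and 6.20 at st.21, against 4.13 and 4.26 at st.19, or 1.45-fold higher. The values of the stages did not overlap, and any factor applied to a whole column leaves this ratio as it is. Quantile normalization, which reshapes the top of the distribution where these genes lie, gave a ratio of the stages of 0.85. For complex I alone the mitochondrial messages had 5.79 and 6.08 times the TPM of the nuclear subunits at st.21, against 4.57 and 4.86 times at st.19. For complex V alone the 2 mitochondrial messages had 1.28 and 1.32 times the TPM of the 14 nuclear subunits at st.21, against 0.839 and 0.863 times at st.19.

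**Figure D3:**
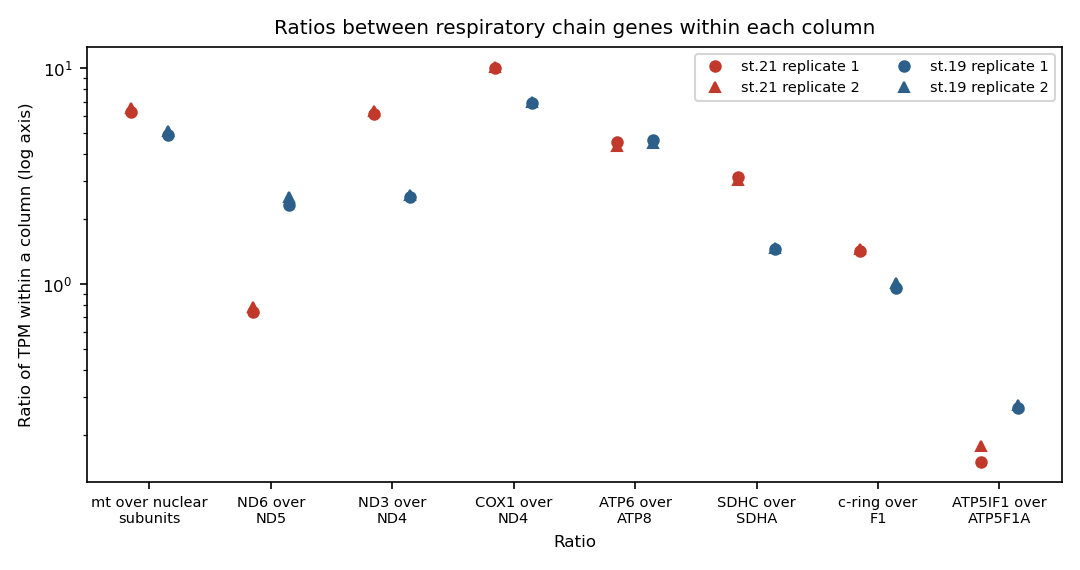
Ratios of TPM between respiratory chain genes or groups within each column (log axis), for the 2 st.21 columns (red) and the 2 st.19 columns (blue). The ratio of *ND6* to *ND5* is below 1 at st.21 (0.738 and 0.783) and is 2.31 and 2.53 at st.19, while that of *ATP6* to *ATP8* is between 4.38 and 4.63 in all 4 columns.

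The 35 nuclear encoded subunits of complex I, the NADH dehydrogenase, had a median difference of 0.49. Of these, 9 lay above 1 (25.7%, against 17.3% of all genes) and 0 below −1 (against 9.68% of all genes). Their median length was 749 nucleotides, and 35.0% of protein-coding genes of 600 to 1000 nucleotides lay above 1. The median difference came to −0.04 with a TPM total over protein-coding genes alone, where the median gene came to −0.46. With quantile normalization it was 0.029, with 18 higher and 17 lower, or 0.10 over the median gene, against 0.43 over the median gene on the deposited scale. The complex has 7 nuclear encoded core subunits, which carry the flavin and the iron-sulphur clusters of the peripheral arm, and these did not share a common difference. *NDUFS8*, an iron-sulphur subunit near the ubiquinone site, had 420 and 395 TPM at st.21, against 203 and 132 TPM at st.19, a difference of 1.31 (interval 1.04 to 1.47). *NDUFV1*, which binds NADH and the flavin, was higher by 0.93 and *NDUFS7* by 0.75. *NDUFV2* differed by 0.25, *NDUFS3* by 0.18 and *NDUFS1*, the largest iron-sulphur subunit, by −0.08, and the intervals of these 3 genes included the median gene. *NDUFS1* had 56.9 and 54.5 TPM at st.21, between its st.19 values of 70.1 and 49.1 TPM. In log2 TPM minus the median gene of each column it had 1.68 and 1.63 at st.21, against 1.75 and 1.77 at st.19. The core subunits *NDUFS1* and *NDUFS3* overlap LOC117884743 and LOC117876910 in the annotation. *NDUFV1* differed between the st.19 columns by more than sampling noise (174 and 93.6 TPM, chi-square 15.2).

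The largest differences among the nuclear encoded subunits of complex I belonged to small accessory subunits of the membrane arm, which surround the core and are needed for its assembly. *NDUFB2*, on chromosome 1 from 101361254 to 101366923, had 555 and 542 TPM at st.21, against 160 and 116 TPM at st.19, a difference of 2.01 (interval 1.72 to 2.32). *NDUFB7* had 256 and 377 TPM at st.21, against 77.5 and 86.7 TPM at st.19, a difference of 1.92. *NDUFA3* had the largest difference of all 78 genes, 2.75 (interval 2.15 to 2.85), with 491 and 373 TPM at st.21, against 103 and 39.4 TPM at st.19. The stages did not overlap for any of these 3 genes, which held for most of the 78 genes when set against the median gene of each column. For *NDUFA3* and *NDUFB7*, however, the columns within a stage differed beyond sampling noise (chi-square of 7.13 and 11.6 at st.21, 12.8 and 11.7 at st.19). *NDUFA3* overlaps LOC117870429 by 1265 bases, which is its whole annotated span. Further accessory subunits above 1 were *NDUFA8* (1.38), *NDUFA7* (1.27), *NDUFB4* (1.17) and *NDUFV3* (1.16), of which *NDUFA8* overlaps MORN5 and *NDUFB4* overlaps LOC117886581.

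Other accessory subunits of complex I were level or lower. *NDUFA1*, the accessory subunit with the highest level at st.21, had 595 and 606 TPM, against 629 and 424 TPM at st.19, a difference of 0.22. Its stages overlapped on the deposited scale. In log2 TPM minus the median gene of each column it had 5.06 and 5.10 at st.21, against 4.91 and 4.88 at st.19, without overlap. Its counting interval, −0.12 to 0.36, however included the median gene. *NDUFA5* had the lowest level, 16.7 and 16.8 TPM at st.21, against 20.3 and 13.5 TPM at st.19. *NDUFAB1*, which is also the acyl carrier protein of mitochondrial fatty acid synthesis, had the most negative difference of the nuclear subunits, −0.48 (interval −0.92 to −0.19). It had 188 and 152 TPM at st.21, against 314 and 176 TPM at st.19, with the st.19 columns apart by more than sampling noise (chi-square 5.23). *NDUFA10* (−0.25) and *NDUFB10* (−0.24) were the other nuclear encoded complex I subunits whose intervals lay wholly below the median gene. By position, the 18 nuclear subunits of the membrane arm had a median of 0.57 and the 16 of the peripheral arm a median of 0.29, with wide overlap between the arms. The 7 core subunits had a median of 0.75 and the 28 accessory subunits a median of 0.40.

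Complex II, the succinate dehydrogenase that also serves the citric acid cycle, showed unequal differences among its subunits. *SDHA*, the flavin-bearing catalytic subunit, had 64.9 and 63.0 TPM at st.21, against 89.3 and 63.0 TPM at st.19, a difference of −0.23 with an interval from −0.55 to 0.02. *SDHB*, the iron-sulphur subunit, had 125 and 128 TPM at st.21, against 88.1 and 63.6 TPM at st.19, a difference of 0.76 (interval 0.38 to 1.06). *SDHC*, a membrane anchor that helps form the ubiquinone site, had 203 and 191 TPM at st.21, against 130 and 92.2 TPM at st.19, a difference of 0.85 (interval 0.63 to 1.06). The ratio of *SDHC* to *SDHA* was 3.12 and 3.03 in the st.21 columns, against 1.46 and 1.47 in the st.19 columns, and that of *SDHB* to *SDHA* was 1.93 and 2.03 at st.21, against 0.986 and 1.01 at st.19. Gene length was 2345 nucleotides for *SDHA* and 1084 for *SDHB*, with a median of 1663 over the 3 subunits. The part of length in these ratios was not tested. The summed TPM of complex II over that of the nuclear subunits of complex I was nearly the same in all columns, 0.061 and 0.060 at st.21, against 0.061 and 0.064 at st.19.

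In complex IV the only nuclear encoded subunit analysed was *NDUFA4*, first assigned to complex I and now counted as a subunit of cytochrome c oxidase in mammals. It had 598 and 610 TPM at st.21, against 559 and 394 TPM at st.19, a difference of 0.36 (interval 0.09 to 0.51), which turned to −0.34 with quantile normalization and to −0.16 with a TPM total over protein-coding genes alone. Its mitochondrially encoded partners *COX1*, *COX2* and *COX3* had differences of 1.18, 0.92 and 1.54.

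The 14 nuclear encoded subunits of complex V, the ATP synthase, had a median difference of 0.74, with 13 higher and 1 lower. Of these, 5 lay above 1 (35.7%, against 17.3% of all genes). Their median length was 764.5 nucleotides, and 35.0% of protein-coding genes of 600 to 1000 nucleotides lay above 1. The 3 genes for subunit c, whose copies form the rotating ring in the membrane, were all higher. *ATP5MC2* had 1027 and 1008 TPM at st.21, against 410 and 281 TPM at st.19, a difference of 1.58 (interval 1.38 to 1.69). *ATP5MC3* had 910 and 887 TPM at st.21, against 472 and 317 TPM at st.19, a difference of 1.21, and *ATP5MC1* differed by 0.90. In vertebrates these genes encode the same mature protein behind different import sequences, so the shares of the 3 messages can be read side by side. *ATP5MC2* had 2.75 and 2.76 times the TPM of *ATP5MC1* in the st.21 columns, against 1.73 and 1.69 times in the st.19 columns. At st.19 *ATP5MC3* was the highest of the 3 genes in both columns, and at st.21 *ATP5MC2* was.

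The catalytic F1 head showed a wider spread. Its genes also differ in length, with 1831 nucleotides for *ATP5F1A*, 1164 for *ATP5F1C*, 493 for *ATP5F1D* and 439 for *ATP5F1E*. The part of length in this spread was not tested. *ATP5F1A*, the alpha subunit, had 490 and 486 TPM at st.21, against 496 and 342 TPM at st.19, a difference of 0.24 (interval 0.06 to 0.30). Its stages overlapped on the deposited scale. In log2 TPM minus the median gene of each column it had 4.78 in both st.21 columns, against 4.57 in both st.19 columns. *ATP5F1C*, the gamma subunit of the central stalk, differed by 0.51. *ATP5F1E*, the epsilon subunit, had 571 and 590 TPM at st.21, against 315 and 226 TPM at st.19, a difference of 1.12. *ATP5F1D*, the delta subunit, differed by 1.60 over all columns (interval 0.90 to 1.58 for replicate 1, relative to the median gene). Its columns, however, stood apart within both stages, with 329 and 242 TPM at st.21 (chi-square 5.53), against 162 and 53.5 TPM at st.19 (chi-square 27.0). The summed TPM of the c-ring genes was 1.43 and 1.45 times that of the 4 F1 genes at st.21, against 0.958 and 1.01 times at st.19. The F1 sum is not that of the whole head, since it lacks *ATP5F1B*, which was not analysed here.

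The peripheral stalk had a median difference of 0.72 and the small subunits of the membrane base one of 0.58, and the inhibitor had a negative difference. In the peripheral stalk, which holds the head still against the rotor, *ATP5PO*, *ATP5PF* and *ATP5PD* were higher by 0.75, 0.74 and 0.71, while *ATP5PB* differed by 0.14 with an interval that included the median gene. *ATP5PF* had the lowest level of the complex V subunits at st.21, 79.3 and 86.1 TPM, against 58.2 and 42.3 TPM at st.19. Among the small subunits of the membrane base, *ATP5MG* was higher by 1.14, *ATP5MF* by 0.58, and *ATP5MD* had the only negative difference among the subunits, −0.19 (interval −0.90 to 0.26). *ATP5IF1*, which binds F1 and blocks ATP hydrolysis when the proton gradient fails, had 73.2 and 85.9 TPM at st.21, against 132 and 93.9 TPM at st.19, a difference of −0.49 (interval −1.23 to −0.14). Its ratio to *ATP5F1A* was 0.149 and 0.177 in the st.21 columns, against 0.266 and 0.275 in the st.19 columns.

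**Figure D4:**
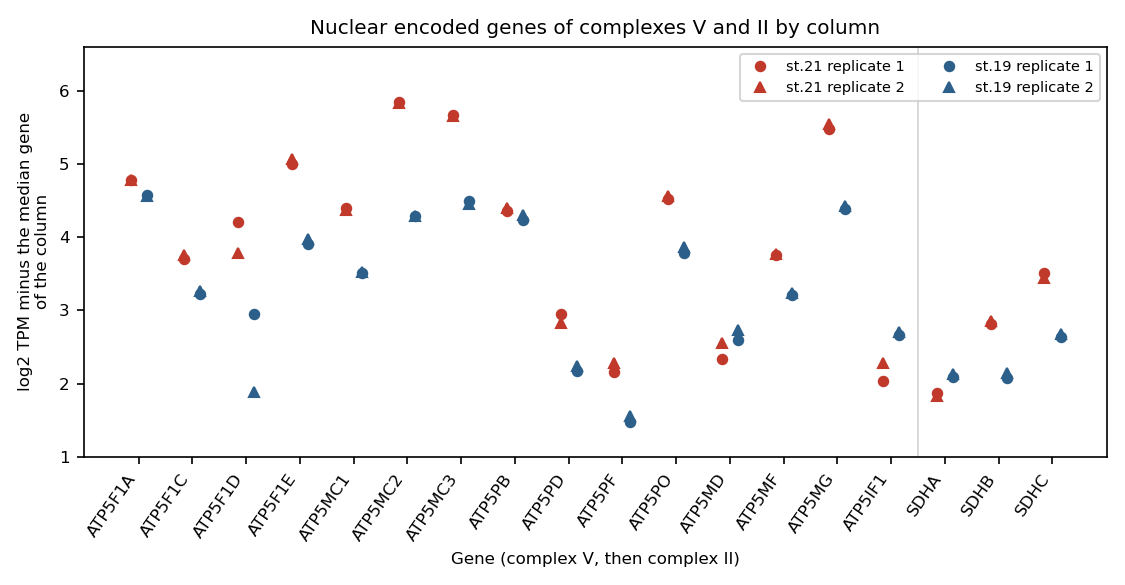
Level of the nuclear encoded genes of complex V (left of the grey line) and complex II (right), as log2 TPM minus the median gene of the same column, in the 2 st.21 columns (red) and the 2 st.19 columns (blue). The c-ring genes *ATP5MC1*, *ATP5MC2* and *ATP5MC3* are higher at st.21, *ATP5IF1* and *SDHA* are lower on this scale, and *ATP5F1D* shows the widest gap between columns of a stage.

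Dedicated assembly factors differed in both directions. The 11 factors in the set had a median difference of 0.19, which came to −0.33 with a TPM total over protein-coding genes alone. Of the 11, 2 lay above 1 (18.2%, against 17.3% of all genes), 2 below −1 (18.2%, against 9.68%) and 7 in between. The share above 1 was thus close to that of all genes. *NDUFAF1*, which helps assemble the membrane arm of complex I in mammals, had 16.8 and 19.8 TPM at st.21, against 63.5 and 42.4 TPM at st.19, a difference of −1.51 (interval −2.50 to −1.11, from 21 reads at st.21 and 171 at st.19). *NDUFAF6* had 3.11 and 3.65 TPM at st.21, against 9.31 and 6.45 TPM at st.19, a difference of −1.20 that rests on 6 reads at st.21 and 42 at st.19 in the replicate 1 columns. In the other direction, *SDHAF2*, which attaches the flavin to SDHA, had 216 and 223 TPM at st.21, against 92.9 and 66.2 TPM at st.19, a difference of 1.48, and *NDUFAF3* differed by 1.08. *SDHAF2* overlaps CPSF7 by 37 bases. *SDHAF1* had 3 reads at st.21 and 9 at st.19 in the replicate 1 columns, and no difference was detectable at this depth.

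Assembly factors outside the naming rule also differed in both directions. Of 43 listed, 20 were analysed, with a median of 0.35. Above 1 lay 5 (25.0%, against 17.3% of all genes) and below −1 lay 1 (5.0%, against 9.68%). *HIGD2A*, a complex IV and supercomplex factor, was the highest, with 255 and 247 TPM at st.21, against 57.3 and 40.9 TPM at st.19, a difference of 2.38. The complex I factors *DMAC2*, *LYRM2* and *DMAC1* differed by 1.63, 1.11 and 1.08 and the complex V factor *ATPAF2* by 1.20. *NUBPL*, which supplies iron-sulphur clusters to complex I, had 11.1 and 8.55 TPM at st.21, against 24.6 and 19.0 TPM at st.19, a difference of −1.15. Of 20 genes listed for ubiquinone synthesis and electron entry, 16 were analysed, with a median of 0.10. *COQ4* (1.24) was the only one above 1 (6.25%, against 17.3% of all genes). *GPD2*, the glycerol phosphate dehydrogenase of the inner membrane, was the only one below −1 (−1.25), which is 6.25%, against 9.68% of all genes.

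Regulators of these genes, from the nuclear coactivators to the mitochondrial transcription machinery, differed in both directions. Of 20 listed, 19 were analysed, with 10 higher and 9 lower, a median of 0.07 and a range from −0.79 to 1.01. The median over all genes was 0.06. Above 1 lay 2 (10.5%, against 17.3% of all genes) and below −1 lay 0 (against 9.68% of all genes). *POLRMT*, the mitochondrial RNA polymerase, had 33.0 and 31.4 TPM at st.21, against 19.6 and 13.0 TPM at st.19, a difference of 1.01. *ESRRA*, a nuclear receptor that activates respiratory genes in mammals, also differed by 1.01. *TFAM*, which packages mitochondrial DNA and starts its transcription, had 32.7 and 36.1 TPM at st.21, against 47.1 and 32.7 TPM at st.19. The difference was −0.19, with overlapping stages on the deposited scale. *PPARGC1A*, the coactivator linked to mitochondrial biogenesis in mammals, had 2.26 and 2.70 TPM at st.21, against 4.20 and 2.99 TPM at st.19. *LRPPRC*, which stabilizes mitochondrial messages, had a difference of −0.69. It was counted among the complex IV assembly factors outside the naming rule, not among these regulators.

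Gene length moved with the nuclear differences. Most nuclear encoded members are short, with a median length of 805 nucleotides, against 3118.5 over all genes analysed. Under 600 nucleotides the nuclear members had a median difference of 0.36 with 31.6% (6 of 19) above 1, against a median of 0.80 with 40.2% above 1 for all protein-coding genes of that class. From 600 to 1000 nucleotides the 24 nuclear members had a median of 0.68 with 29.2% above 1, against 0.61 with 35.0% for protein-coding genes. From 1000 to 2000 nucleotides the 16 members had a median of 0.28 with 12.5% above 1, against 0.31 with 23.5% for protein-coding genes. The share of nuclear members above 1 was thus no higher than that of protein-coding genes of the same length in these 3 classes, and the part of gene length in the differences was not tested. The mitochondrially encoded genes are short as well, 189 to 1827 nucleotides.

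**Figure D5:**
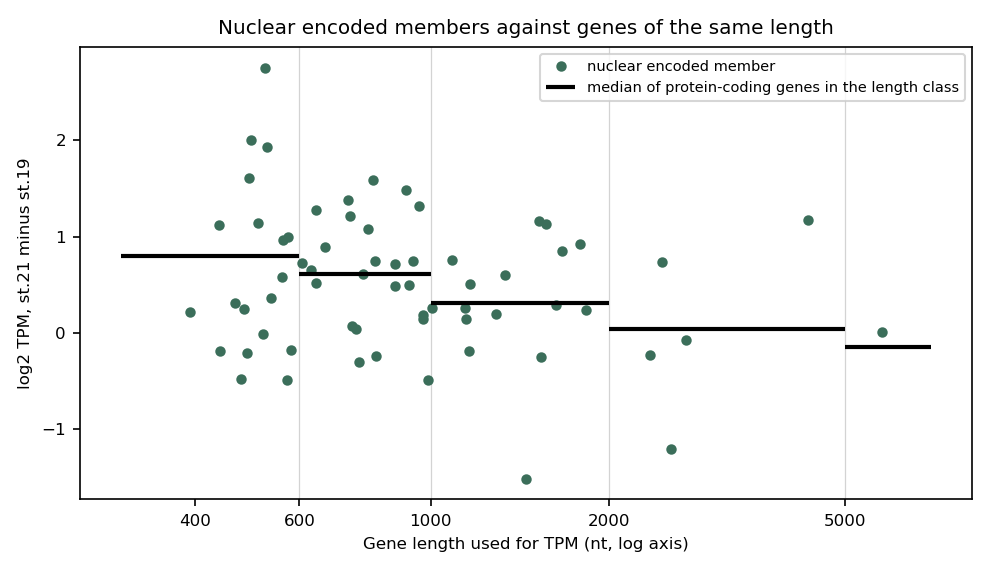
Difference in log2 TPM (st.21 minus st.19) of the 65 nuclear encoded genes against gene length (log axis), with black bars for the median of all protein-coding genes in each length class. The bars step down from 0.80 under 600 nucleotides to −0.14 at 5000 and above, and the members scatter on both sides of them.

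Markers of several cell types also differed between the stages. The 9 Schwann cell markers had a median difference of 0.89, with 7 higher and 2 lower (53.1% of all genes were higher). Their summed level was 5050 and 4980 TPM at st.21, against 2595 and 1769 TPM at st.19. All 13 skeletal muscle markers analysed were higher at st.21 (median 4.96), and 12 lay above 1 (92.3%, against 17.3% of all genes). Their summed level was 3238 and 3199 TPM, against 183 and 122 TPM at st.19. Of 11 neuron markers 8 were lower at st.21 and 6 lay below −1 (54.5%, against 9.68% of all genes). Their summed level was 4160 and 4228 TPM, against 6422 and 4420 TPM at st.19. The 7 fibroblast markers were all higher (median 2.49), with a summed level of 27979 and 27649 TPM at st.21, against 5963 and 4051 TPM at st.19, and the 4 erythroid markers summed to 41.2 and 38.6 TPM, against 11.1 and 8.29 TPM at st.19. No marker analysed was at 0 reads in any column. The part of these cell types in the respiratory chain differences was not tested.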

How the data were processed

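The samples were plexus pieces of st.21 and st.19 embryos. The study's methods name a stranded, poly(A)-selecting kit for a batch of nerve tissue, beside samples sequenced by a company. Those methods do not say which of these gave the deposited columns. Per the submitters' processing notes and the study's methods, reads were aligned with HISAT2, counted per gene with featureCounts and converted with edgeR 3.42.4. The authors deposited log2 TPM values with a prior count added, in 2 columns per stage, and 0 columns were left unused. Columns named 212 were taken as st.21. The authors' own comparisons were not used.

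Whole reads were recovered from the deposited log2 values, since each value is a whole read count plus a prior (mean 2 reads) over a gene length. With a tolerance of 5e-05, 100.0% of 15289 genes gave whole reads at exactly 1 length, and 64 of 66 single-exon genes gave the annotated RefSeq length. The annotated lengths of those 66 genes had also served to find the value of 1 read in each column, so this match is not an independent check. The recovery was tested on simulated data. The 15100 genes that reached 1 TPM in 2 or more columns were analysed. Differences are means of log2 TPM, with a fold threshold of 1, and no p-value was computed, since each stage was counted as 1 sample. Gene names and coordinates are those of RefSeq, which matched 15266 rows.

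Members named in the text are all mitochondrially encoded genes, all genes past a difference of 1, the highest, lowest and most different nuclear subunits of each complex, core subunits of complexes I, II and F1, the subunit c isoforms, the inhibitor, and listed assembly factors past 1. Some genes that meet this rule are not reported here. Other members are named for their place in a list, after their values were seen. The members and lists were chosen with earlier results of these data known. Computations ran in Python 3.11.15 (scipy 1.17.1, pandas 2.3.3, numpy 2.4.6, figures with matplotlib 3.10.9). Alternatives were 5 other scalings, 2 pseudocounts, other filters, a replicate block and leaving out each column.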

Additional observations from a re-analysis of the deposited data

How the results depend on the processing

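The number of respiratory chain genes above 1, 26 on the deposited scale, was 8 (10.3%) after quantile normalization, where 13.6% of all genes were above 1, was 8 for a TPM total over protein-coding genes alone, where 7.34% of all genes were, and ranged from 13 (without st.19 replicate 2) to 33 (without st.19 replicate 1) when a column was left out. The number below −1, which was 2, was 6 with the protein-coding total (24.6% of all genes), 1 with log2(TPM + 5), and from 1 (without st.19 replicate 1) to 2 with a column left out. With the protein-coding total the medians were −0.036 for complex I nuclear subunits, 0.23 for complex II, −0.16 for *NDUFA4*, 0.22 for complex V nuclear subunits and 0.70 for the mitochondrially encoded genes. With quantile normalization they were 0.029 for complex I, 0.41 for complex II, −0.34 for *NDUFA4*, 0.35 for complex V and 0.076 for the mitochondrially encoded genes. The ratio of mitochondrially encoded to nuclear TPM, 1.28-fold higher at st.21, was 0.85 with quantile normalization and 1.25 to 1.31 with a column left out. Without st.19 replicate 2 the complex I median was 0.23, and relative to the median gene without that column, a setting chosen after seeing the data, it was 0.46. The other alternatives left these values within 1.5 times or within the spread of the columns.

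Subtracting same-numbered columns in pairs (replicate block) gives the same counts, 26 and 2, and the same medians by construction, and a ratio of 1.28. The replicate numbers are not stated to mark shared animals or days, and the replicate differences of the stages correlated with r = 0.28 across 15100 genes, which are not independent replicates. No value could be given for complex III nuclear subunits, which have no members here, and the pseudocounts do not apply to the ratio. With 1 sample per stage, differences between embryos cannot be separated from differences between stages. Depth limits the low genes, since the least covered member had 2 reads at st.21 and 9 at st.19.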
